A study of Homo sapiens with 38 samples.

Results

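The data described here are the 8 H3K27ac libraries, of 38 in the series, that were amplified for 11 PCR cycles and extracted either with a DNA clean-up column or with SDS. They were chosen by the extraction, cycle and mark given in their labels, without use of any measured value. All 8 were CUT&Tag libraries of K562, an established human erythroleukemia line that carries the BCR-ABL1 fusion, without a deacetylase inhibitor. The antibodies were Abcam-ab177178, Abcam-ab4729 and Active Motif 39133, each at 1:100, and Diagenode C15410196 at 1:50. Each antibody was used once with the column and once with SDS, so each of the 8 conditions was 1 library and the 4 antibodies stood in for replicates.

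H3K27ac is the acetylation of lysine 27 on histone H3 and marks active promoters and enhancers. In CUT&Tag an antibody brings a protein A-Tn5 transposase to the mark inside permeabilised cells, and the enzyme cuts and tags the DNA beside it. The tagged DNA must then be freed from the nuclei before PCR. With the column route the DNA was released with EDTA, SDS and proteinase K and purified, and with the SDS route it was released from the bead-bound nuclei in an SDS buffer that was quenched with Triton, with no purification before PCR. Peaks were called by the authors with SEACR, which joins stretches of continuous fragment coverage and keeps those with the highest summed coverage. That sum, coverage times base pairs, is called signal here. A region that is missing from a list had less signal than the list's floor, and its coverage is not known. The lists of this set came from reads downsampled to a shared depth. The study tabulates duplication and unique fragments per library before that step, and these differed between the 2 extractions. They were not used here and the lists hold no fragment numbers, so extraction and the number of unique fragments cannot be told apart in any difference below.

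Only 4 distal regions outside repeats had a peak in every library of one extraction and in none of the other, at CR1L, GUCA1B, CIC and KCNN4. The sequences of the last 3 are shown because they lay outside the promoters of canonical starts and differed in every antibody pair. Each is the 300 bases around the highest coverage, from GRCh37 (hg19), plus strand, and lies outside exons and UTRs. Capitals mark AGATAA (bound by GATA factors, either strand, so TTATCT counts too) and TGANTCA (bound by AP-1 and NF-E2 factors, its own reverse complement). The GUCA1B region was called with SDS and the others with the column. The GUCA1B window is chr6:42165591-42165890, the CIC window chr19:42787769-42788068 and the KCNN4 window chr19:44288649-44288948.
GUCA1B region: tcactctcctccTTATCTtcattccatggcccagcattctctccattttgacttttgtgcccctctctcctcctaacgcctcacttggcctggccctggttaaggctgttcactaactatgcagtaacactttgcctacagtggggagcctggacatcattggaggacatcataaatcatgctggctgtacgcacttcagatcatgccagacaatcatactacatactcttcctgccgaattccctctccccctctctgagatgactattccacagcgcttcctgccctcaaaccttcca
CIC region: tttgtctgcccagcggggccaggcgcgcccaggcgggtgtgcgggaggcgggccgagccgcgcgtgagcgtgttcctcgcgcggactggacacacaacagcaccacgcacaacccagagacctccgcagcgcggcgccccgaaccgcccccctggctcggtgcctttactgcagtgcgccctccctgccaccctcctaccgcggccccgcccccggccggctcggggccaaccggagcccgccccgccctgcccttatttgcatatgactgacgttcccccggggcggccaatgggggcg
KCNN4 region: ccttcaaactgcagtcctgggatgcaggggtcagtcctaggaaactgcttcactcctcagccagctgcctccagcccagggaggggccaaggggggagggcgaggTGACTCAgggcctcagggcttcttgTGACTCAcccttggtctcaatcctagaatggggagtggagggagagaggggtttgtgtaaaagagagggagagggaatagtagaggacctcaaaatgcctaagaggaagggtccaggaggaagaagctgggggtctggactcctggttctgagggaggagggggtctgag

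The GUCA1B window held AGATAA 1 time and the KCNN4 window held TGANTCA 2 times. Over windows of the same length at all 54015 peaks, promoter peaks included, 11.0% held AGATAA and 9.25% held TGANTCA. The shares were higher at distal peaks called with one extraction only. There AGATAA was in 13.2 to 17.0% of windows in the SDS lists and TGANTCA in 11.7 to 20.5% in the column lists. The CIC window was 74.3% G and C with 36 CpG sites and held neither motif. Its region was distal from the canonical CIC start by 13786 bp but covered the start of another annotated CIC transcript, so by a wider annotation it is a promoter.

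The 8 lists held 55232 deposited peaks, of which 54015 lay on chromosomes 1 to 22, X and Y and were used. With ab177178 the column list had 9140 peaks and the SDS list 10821. With ab4729 they had 6644 and 5790, with Active Motif 7225 and 3989, and with Diagenode 6368 and 4038. The column thus gave more peaks with 3 of 4 antibodies and fewer with ab177178. The mean log2 ratio of column to SDS was 0.37 ± 0.49 (SD, n = 4 antibodies), a 1.29-fold mean, with p = 0.375 in a two-sided exact sign-flip test. Without the Active Motif pair the mean was 0.20 and without the ab177178 pair 0.57. With 4 pairs the exact test cannot give less than p = 0.125, so none of the summary measures below could have passed 0.05.

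**Figure D1:**
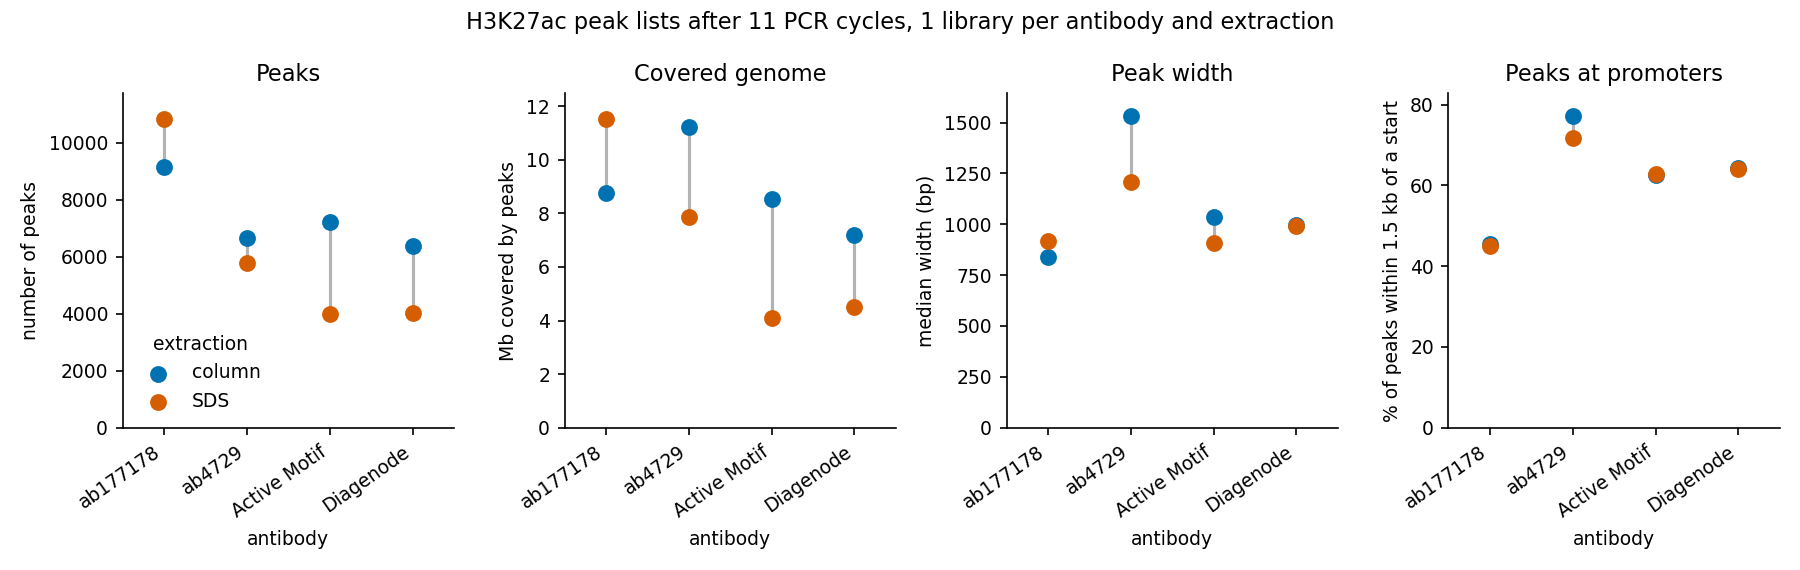
Number of peaks, covered Mb, median peak width in bp and the percent of peaks within 1.5 kb of an annotated start (vertical axes) for each antibody (horizontal axis), with 1 point per library, blue for the column and orange for SDS, and a grey line joining the pair. The column point lies above the SDS point for peaks and covered Mb with 3 of 4 antibodies and below it with ab177178.

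The genome covered by peaks followed the same order. It was 8.76 Mb with the column and 11.5 Mb with SDS for ab177178, 11.2 and 7.86 Mb for ab4729, 8.55 and 4.10 Mb for Active Motif, and 7.20 and 4.50 Mb for Diagenode (log2 ratio 0.47 ± 0.62, SD, n = 4, exact sign-flip p = 0.25). With the longer list of each pair cut to its strongest peaks so that both were equally long, the mean log2 ratio was 0.22. The median peak width was 839 bp with the column and 919 bp with SDS for ab177178, 1530 and 1209 bp for ab4729, 1035 and 908 bp for Active Motif, and 995 and 989 bp for Diagenode. The difference in width (log2 ratio 0.10 ± 0.21, SD, n = 4, higher with the column in 3 of 4, exact sign-flip p = 0.375) was smaller than the spread between antibodies, and with equally long lists the mean log2 ratio was 0.23. Promoter peaks were wider than distal peaks in all 8 libraries, with medians from 855 to 1549 bp against 825 to 1475 bp.

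A peak was called promoter when it lay within 1.5 kb of the canonical start of any annotated gene, and distal otherwise. The promoter share was 45.5% of peaks with the column and 45.0% with SDS for ab177178, 77.2% and 71.7% for ab4729, 62.6% and 62.8% for Active Motif, and 64.3% and 64.1% for Diagenode. For ab4729 the exact binomial 95% intervals, which cover counting error only, ran from 76.2 to 78.2% and from 70.6 to 72.9% and did not meet. For the other antibodies they overlapped. The mean difference was 1.48 ± 2.67 percentage points (SD, n = 4, exact sign-flip p = 0.25), and without the ab4729 pair it was 0.156. It was 2.89 points with equally long lists. Between 11.9 and 31.6% of a column list lay over 10 kb from any start, against 15.1 to 31.4% of an SDS list. Counted by signal in place of peaks, the promoter share was higher with the column in 4 of 4 pairs, by 6.69 ± 3.802 points (exact sign-flip p = 0.125). With the repeat peaks described further down left out, the difference was 1.41 ± 2.16 points and positive in 3 of 4.

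As a reference, 14684 regions were called in at least 2 of 6 other H3K27ac libraries of the series, which were made with 15 cycles, SDS extraction and 3 of the same antibodies. With ab177178, 73.5% of column peaks and 75.9% of SDS peaks lay on such a region, against 92.7 to 98.2% in the other 6 lists. The difference between extractions was -0.35 ± 1.45 points (SD, n = 4, exact sign-flip p = 0.875). The ab177178 lists also stood apart by place, with 6.35% and 6.14% of their peaks on chromosome 22 against 1.99 to 3.34% in the others, and by overlap with H3K27me3 regions, the mark of Polycomb-repressed chromatin, at 18.1% and 14.3% against 4.49 to 9.10%. At 13 cycles the column and SDS lists of ab177178 had 2.62% and 3.31% of their peaks on chromosome 22. On H3K27me3 regions lay 4.53% and 4.68% of them, and on reference H3K27ac regions 93.3% and 92.7%. The median GC content of peaks at 11 cycles was 55.1 to 58.3% and differed by -0.22 ± 0.78 points between the extractions (exact sign-flip p = 0.875).

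The same antibody recovered partly different regions with each extraction. Of the column peaks, 48.9% overlapped an SDS peak of that antibody with ab177178, 61.3% with ab4729, 38.0% with Active Motif and 40.6% with Diagenode. Of the SDS peaks, 39.9%, 73.0%, 69.8% and 64.1% overlapped a column peak, in the same order. The shorter list of each pair was therefore the better covered one. Within each list the overlap followed strength. Among the tenth of peaks with the highest signal, 86.5 to 98.6% were also called with the other extraction, and among the tenth with the lowest signal 15.2 to 50.2%. As base pairs in common over base pairs in either list, the pairs of 1 antibody reached 22.4 to 37.5%, while lists of different antibodies with the same extraction reached 15.7 to 34.3%.

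In all 8 libraries the peaks called with both extractions were wider, more often at promoters and more often on reference regions than the peaks of that library called with one. They were wider by 189 ± 50.8 bp at the median (SD over 8 libraries), and their promoter share was higher by 10.2 ± 6.64 points and their reference share by 12.1 ± 9.07 points. With equally long lists the promoter share of shared peaks was higher in 7 of 8 libraries, by 7.69 ± 7.66 points, the exception being the Diagenode column list with 66.4% against 69.1%. Shared and unshared peaks also differ in signal, so these gaps are a description. Among the shared peaks the extractions were close, with a promoter share that differed by 0.25 ± 0.94 points. Among the unshared peaks the ab4729 lists differed most, with 75.5% at promoters for the column and 55.6% for SDS. The same shares were 38.4% and 39.3% for ab177178, 59.6% and 55.1% for Active Motif, and 63.1% and 60.2% for Diagenode (mean difference 6.59 ± 9.14 points, exact sign-flip p = 0.25).

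**Figure D2:**
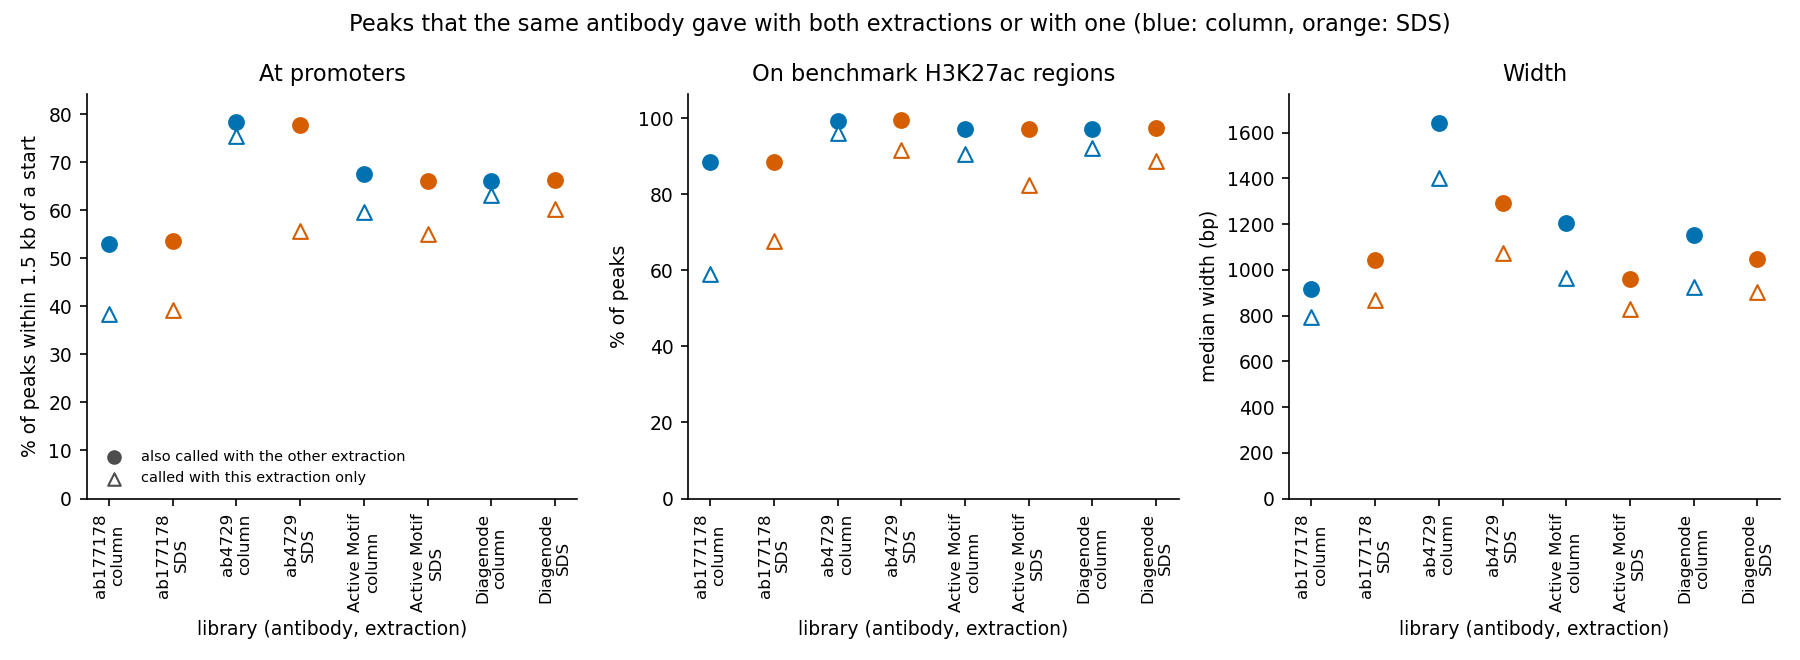
Percent of peaks at promoters, percent on reference H3K27ac regions and median width in bp (vertical axes) for each of the 8 libraries (horizontal axis), split into peaks also called with the other extraction (filled circles) and peaks called with that extraction only (open triangles), blue for the column and orange for SDS. With the whole lists plotted here the circle lies above the triangle in every library and every panel.

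The unshared peaks were also looked up in the lists made with 13 cycles. Of the ab4729 peaks called with the column only, 28.5% overlapped a 13-cycle column peak and 36.5% a 13-cycle SDS peak of that antibody. Of those called with SDS only, 24.5% and 30.4% did. For Active Motif the column-only peaks gave 20.2% and 31.5% and the SDS-only peaks 19.3% and 27.9%. For Diagenode they gave 19.96% and 47.7%, and 20.1% and 45.6%. For ab177178 they gave 25.5% and 24.9%, and 28.7% and 29.1%. The SDS-only peaks were found more often in the 13-cycle SDS list with all 4 antibodies, and the column-only peaks with 3 of 4. With those 3 antibodies the 13-cycle SDS list was also the longer one, with 6277 against 4670 peaks for ab4729, 6111 against 3927 for Active Motif and 6984 against 3797 for Diagenode. Over all ab4729 column peaks, shared ones included, 48.6% overlapped a 13-cycle column peak and 57.6% a 13-cycle SDS peak.

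In 300-base windows at the highest coverage, the unshared distal peaks held AGATAA more often with the column than with SDS in 4 of 4 antibodies, in 14.2 to 20.2% against 13.2 to 17.0% of windows (2.85 ± 1.43 points, SD, n = 4, exact sign-flip p = 0.125). TGANTCA stood in 11.7 to 20.5% against 11.3 to 13.7% (3.48 ± 2.63 points, higher in 4 of 4, exact sign-flip p = 0.125). Both p-values are the smallest that 4 pairs allow. In shared distal peaks the differences were 0.875 points for AGATAA and 0.9 for TGANTCA, each higher with the column in 3 of 4. Which peaks are unshared depends on list length, and the motif counts were not repeated with equally long lists. In unshared promoter peaks the motif CCGGAAGT of the ETS family, counted on both strands, was in 3.37 to 5.00% of column and 2.15 to 4.38% of SDS windows. In unshared distal peaks it was higher with the column in 1 of 4, with a mean difference of -0.357 points. At all protein-coding promoters it was in 5.27%. Those windows were placed by the canonical start, not by the highest coverage, and cover protein-coding genes alone. The last share is therefore not a matched rate for the peaks.

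Merged over the 8 lists, the peaks formed 19066 regions. Of these, 944 (4.95%) had a peak in all 8 libraries, and 692 of the 944 were at promoters. Regions with a peak in any column library and no SDS library numbered 5618, of which 40.1% were at promoters and 60% on reference regions. Those with SDS only numbered 4928, with 27.9% and 54.3%. Most came from single libraries, 4737 and 4601. Of the regions recovered by both extractions, 64.5% were at promoters and 92.2% on reference regions.

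The strictest difference, a peak in 4 of 4 libraries of one extraction and 0 of 4 of the other, held for 29 regions with the column (0.152% of all regions) and 4 with SDS (0.021%). With equally long lists the counts were 11 and 5. The 29 column regions were 1092 to 3537 bp long, 27 of them were at promoters and all 29 lay on reference regions. The distal ones were the KCNN4 region, chr19:44288121-44289881, which lay 2996 bp from the gene of an intermediate-conductance potassium channel of red cells, and the CIC region. The KCNN4 peaks had a signal of 2270 with ab177178, 6116 with ab4729, 3262 with Active Motif and 2565 with Diagenode, at a highest coverage of 4, 10, 5 and 7 fragments. All 4 were in the upper part of their lists, at signal percentiles from 55.5 to 73.2.

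The 4 SDS regions were at CR1L, GUCA1B and HOXB9 and near the chromosome 1 centromere. The CR1L region, chr1:207820303-207821547, lay inside this complement-receptor-like gene and had an SDS signal of 1801, 2701, 3370 and 2066 in the order ab177178, ab4729, Active Motif and Diagenode. The GUCA1B region, chr6:42164859-42166175, 2165 bp from the gene of a retinal guanylate cyclase activator, had 2250, 2239, 2945 and 2655. The HOXB9 region, chr17:46702851-46705513, covered the promoter of this homeobox factor with 2004, 3168, 1449 and 1605. The region near the centromere, chr1:121102303-121105172, had 5547, 9127, 3512 and 1578. At 13 cycles the CR1L and HOXB9 regions each had a peak in 3 column libraries and 1 SDS library, the opposite of their order at 11 cycles. The GUCA1B region had 0 and 3. Over the 29 column regions, 5 were in more column libraries at 13 cycles, 7 in equal numbers and 17 in more SDS libraries. Over all 19066 regions these counts were 2426, 10780 and 5860.

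By gene, 7955 of 20136 protein-coding promoters (39.5%) had a peak in at least 1 of the 8 libraries and 660 (3.28%) in all 8. The column reached 3383, 5319, 4248 and 3889 promoters with ab177178, ab4729, Active Motif and Diagenode, and SDS reached 3963, 4120, 2431 and 2482 (log2 ratio 0.40 ± 0.46, SD, n = 4, a 1.32-fold mean, exact sign-flip p = 0.25). Of all promoters 20.4% had a peak in more column than SDS libraries and 8.16% in more SDS than column libraries. With equally long lists the counts came closer, at 2896 and 2267 in place of 4104 and 1644, and the mean log2 ratio of promoters reached was 0.09.

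A peak in all 4 column libraries and no SDS library was found at 29 protein-coding promoters, 0.144% of those tested, and at 15 with equally long lists. They ranked in the middle of their lists, with a median signal percentile of 40.5, and all 29 had a peak in at least 1 reference library. The one with the highest rank was ST3GAL2, a sialyltransferase, with a signal of 4403 with ab177178, 14448 with ab4729, 3086 with Active Motif and 3507 with Diagenode. Its gene body had a peak in all 8 libraries. ETNK1, which phosphorylates ethanolamine for membrane lipids, had 3727, 4515, 4198 and 3203 in the same order. FAH, the last enzyme of tyrosine breakdown, had 1439, 8535, 7314 and 3045. ELK4, an ETS factor, had 1929, 7278, 2594 and 2369. The ab4729 value was the highest of the 4 for each of these genes, and that antibody's column list also had the highest floor, 3230.

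MDH1, the cytosolic malate dehydrogenase, and WDPCP, a ciliogenesis gene, start at one shared promoter, whose column peaks had a signal of 1436, 5299, 3106 and 2707. The rest of the 10 highest ranks were MKRN1, a ubiquitin ligase, VPS54, a subunit of a complex that tethers vesicles at the Golgi, BORCS5, a subunit of the complex that positions lysosomes, and QARS1, the glutamine tRNA ligase. TFRC, the transferrin receptor through which red cell precursors take up iron, was among the 29 with 1307, 3867, 2485 and 2514. The ab177178 value of TFRC was close to the floor of that list, 1231. At 13 cycles the TFRC promoter had a peak in 1 column and 2 SDS libraries. Over the 29 promoters, 6 were in more column libraries at 13 cycles, 8 in equal numbers and 15 in more SDS libraries. Over all 7955 promoters called at 11 cycles these counts were 1101, 3139 and 3715.

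With SDS only, 2 promoters had a peak in 4 of 4 libraries, 0.00993% of those tested, and 3 did with equally long lists. WBP4, a splicing-associated protein, had 1792, 2324, 1845 and 3239, and HOXB9 is described above. A further 8 were named because they had a peak in 3 SDS libraries and no column library. Among these SMIM19 had the highest rank, with 3943 with ab177178, 5118 with ab4729 and 2265 with Diagenode. MED29, a Mediator subunit, and PAF1, a subunit of the PAF1 elongation complex, share 1 promoter, with 2199, 3605 and 1911 in the same libraries. CYB5R1, a cytochrome b5 reductase, had a peak with SDS at 11 cycles only and in none of the 8 libraries at 13 cycles. RPL36, ICA1, GCDH and SCLT1 completed the group. Elsewhere in the gene, RPL36 had a peak in 3 column libraries, ICA1 in 4 and MED29 in 1.

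Gene lists that fit K562 were read at their promoters, with counts out of all members. Of all promoters 20.4% had more column libraries and 8.16% more SDS libraries, but most of these had no peak in any library. Of the 7955 promoters with a peak in at least 1 of the 8 libraries, 51.6% had more column and 20.7% more SDS libraries. For lists that were mostly called, the latter shares are the closer comparison. Among the splicing factors all 18 had a peak in some library, 13 in more column libraries and 1 in more SDS libraries. SF3B1, a core subunit of the splicing machinery, and SRSF3 had a peak in 3 column libraries and no SDS library, PTBP1 in 4 and 1, and HNRNPK in 2 and 4. Of 12 common reference genes 8 were in more column libraries and 0 in more SDS libraries, while ACTB and EEF1A1 were called in all 8. Of 30 ribosomal protein genes 12 were in more column libraries and 2 in more SDS libraries, with RPL19 in 3 and 0 and RPS3 in 0 and 3. With equally long lists these counts were 10 and 1 for the splicing factors, 6 and 1 for the reference genes and 10 and 3 for the ribosomal proteins. A peak in some library was found at 11 of the 12 reference genes and 23 of the 30 ribosomal protein genes.

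**Figure D3:**
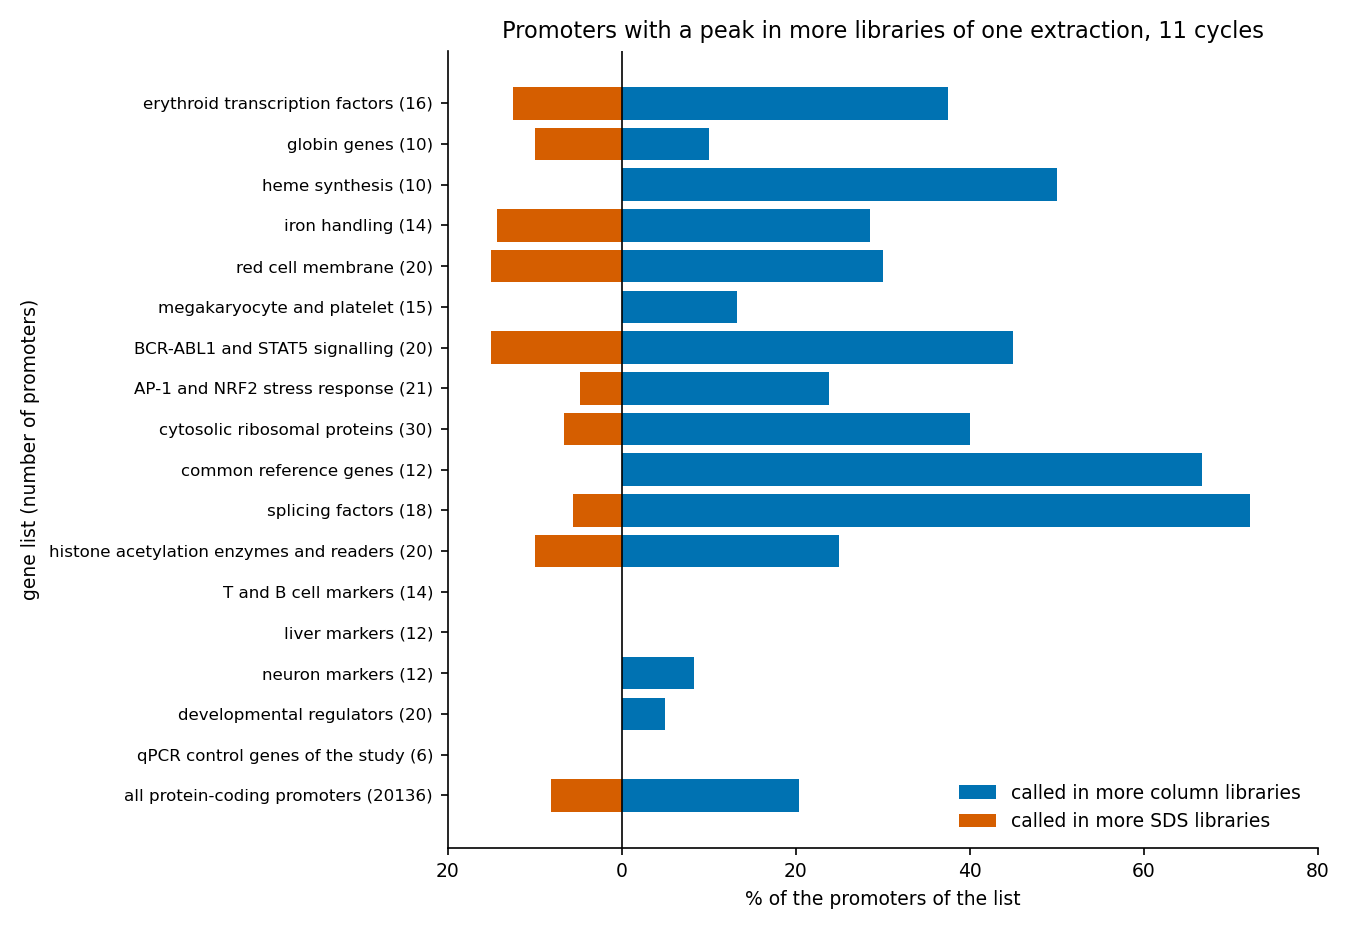
Percent of the promoters of each gene list (horizontal axis, 0 at the centre line) that had a peak in more column libraries (blue, to the right) or in more SDS libraries (orange, to the left), with the number of promoters of each list in brackets (vertical axis). All protein-coding promoters, in the lowest row, stand at 20.4% and 8.16%, and the splicing factors at 72.2% and 5.56%. Promoters with a peak in at least 1 of 8 libraries, which are not drawn, stand at 51.6% and 20.7%.

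Of 16 erythroid transcription factors 13 had a promoter peak in some library. KLF1, the erythroid Kruppel-like factor, had a promoter peak in all 8 libraries, and GATA1, TAL1 and NFE2, which bind erythroid enhancers, had one in 4 column and 3 SDS libraries. Of the 16, 6 were in more column libraries and 2 in more SDS libraries, and with equally long lists 5 and 5. HBZ, the embryonic alpha-like globin, had a peak in all 8 and the fetal globins HBG1 and HBG2 in 3 and 3. A peak in some library was found at 6 of 10 globin genes. Of the 10, 1 was in more column and 1 in more SDS libraries, and with equally long lists 1 and 2. Of 10 heme synthesis genes 7 had a peak in some library. Of the 10, 5 were in more column libraries and 0 in more SDS libraries, among them CPOX with 4 and 2. With equally long lists the counts were 4 and 0. UROD and PPOX were called in all 8. Of 14 iron genes 12 had a peak in some library. Of the 14, 4 were in more column and 2 in more SDS libraries, and with equally long lists 3 and 4. TFR2, PCBP1 and NCOA4 were called in all 8. EPOR, the erythropoietin receptor, had a peak in 2 column libraries and in 0 SDS libraries. With equally long lists EPOR had no peak with either extraction, and it had none at 13 cycles.

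Downstream of BCR-ABL1, 9 of 20 signalling genes were in more column and 3 in more SDS libraries. The fusion partner BCR and its adaptor CRKL had a peak in all 8. PIM1 and BCL2L1, both STAT5 targets that support survival, had a promoter peak in 4 column and 2 SDS libraries. CISH, a feedback inhibitor of STAT5, had one in 2 and 4. With equally long lists these were 3 and 2 for PIM1 and BCL2L1 and 1 and 4 for CISH. In the gene body PIM1, BCL2L1 and CISH each had a peak in 4 column and 4 SDS libraries. Of 21 stress response genes 5 were in more column and 1 in more SDS libraries, with JUND, NFE2L2 and SQSTM1 in all 8. Of 20 histone acetylation genes the counts were 5 and 2, with BRD2, a reader of acetylated histones, in all 8. They were 6 and 3 for 20 red cell membrane genes and 2 and 0 for 15 megakaryocyte genes. With equally long lists the counts were 6 and 3 for signalling, 3 and 1 for the stress response, 2 and 3 for histone acetylation, 3 and 3 for the red cell membrane and 2 and 0 for megakaryocyte genes. A peak in some library was found at 15 signalling, 11 stress response, 13 histone acetylation, 12 red cell membrane and 3 megakaryocyte genes. For these called members the closer comparison is 51.6% and 20.7%, the shares of promoters with a peak in some library.

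Markers of other cells rarely had a peak. No liver marker of 12 had a promoter peak in any library. Of 14 T and B cell markers CD3D and CD3G had a peak in 1 library of each extraction, and of 12 neuron markers TUBB3 had 1 with the column. Of 20 developmental regulators WT1, which leukemia cells often express, had a peak in 3 and 3. Of the 6 qPCR control genes of the study 2 had a promoter peak in all 8 libraries, among them the positive control ZMYND8. The other 4 control genes had none at the start, though ARHGAP22, also a positive control, had peaks inside the gene in all 8.

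Within the 944 regions called in all 8 libraries, signal was centred on each library's median and compared with limma, with the antibody as a block and Benjamini-Hochberg adjustment. No region was higher with the column and 4 (0.424% of those tested) were higher with SDS at an adjusted p under 0.05. At an unadjusted p under 0.05 there were 16 and 52, and with centring on summed signal in place of the median 92 and 20. All 4 were telomere repeats at or near chromosome ends, and each had an adjusted p of 0.0276 in limma. At chr1:10003-10606 the signal with the column and with SDS was 6107 and 9857 for ab177178, 7060 and 18371 for ab4729, 13623 and 21924 for Active Motif, and 9768 and 24512 for Diagenode. Every SDS value was above its column value, and the centred log2 difference was -1.42 (SE 0.28).

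The other 3 were chr4:191043602-191044276 at -1.23 (SE 0.24), chr12:133841404-133841893 at -1.37 (SE 0.27) and X:155259561-155260465 at -1.36 (SE 0.27), all on the centred log2 scale. The difference had the same sign in all 4 antibodies for the chromosome 1 and 4 regions, and in 3 of 4 for the others after centring. All 12 telomere-repeat regions called in all 8 libraries were lower with the column, with a median of -1.19, against -0.03 over the 944 regions. These classes of repeats were set up after the values had been seen. The calls were lost (0 of 944) without the block on antibody, with centring on summed signal, without the mean-variance trend, and without the Active Motif or the Diagenode pair. Leaving out the ab177178 pair gave 13 lower and leaving out the ab4729 pair 3 higher and 9 lower.

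**Figure D4:**
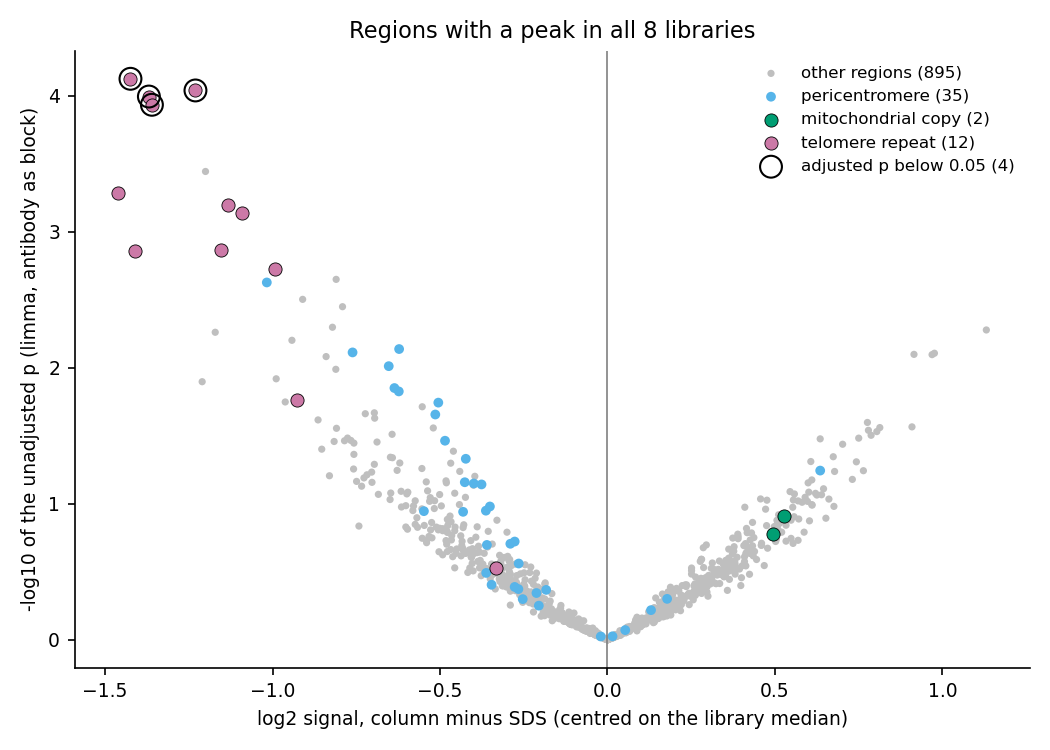
Centred log2 difference in signal, column minus SDS (horizontal axis), and -log10 of the unadjusted limma p (vertical axis), with 1 point per region called in all 8 libraries, coloured by repeat class, and a ring around the 4 regions with an adjusted p under 0.05. The 12 telomere-repeat regions lie to the left of 0 and the 2 copies of mitochondrial DNA to the right.

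On the column side the largest differences did not pass. The region chr14:91266902-91273198, 9576 bp from TTC7B, had a signal of 10028 and 2694 for ab177178, 18012 and 8944 for ab4729, 9959 and 1680 for Active Motif, and 7159 and 4523 for Diagenode, column first. Its column peaks were 4732, 6046, 4081 and 3609 bp wide and its SDS peaks 1250, 2989, 842 and 2148 bp. All 4 pairs went the same way, with a centred log2 difference of 1.13 (SE 0.35, limma adjusted p = 0.288). The promoters of RNF217, a ubiquitin ligase gene, ANGEL2 and POU2F1, which encodes the octamer-binding factor OCT1, followed at 0.98 (SE 0.32), 0.92 (SE 0.30) and 0.97 (SE 0.32), each with a limma adjusted p of 0.313.

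Peak widths in the 944 regions gave no call in limma in either direction. At an unadjusted p under 0.05, 44 regions were wider and 5 narrower with the column. With each library's median width subtracted, 21 were wider and 35 narrower, and the median log2 ratio was -0.04. The median log2 ratio of covered base pairs was 0.16 over all 944, 0.19 at promoters and 0.13 at distal regions, and 666 of 944 were above 0. ETFB, the beta subunit of the electron transfer flavoprotein, had the next smallest unadjusted p after the TTC7B region, with widths of 1684 and 947 bp for ab177178, 3037 and 860 for ab4729, 3972 and 1560 for Active Motif, and 2716 and 1780 for Diagenode, column first (log2 1.15, SE 0.30, limma adjusted p = 0.783).

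Summed over a list, telomere-repeat peaks had a signal, in Mbp of coverage times bases, of 0.499 Mbp with the column and 0.663 Mbp with SDS for ab177178, 0.658 and 1.52 Mbp for ab4729, 0.936 and 1.90 Mbp for Active Motif, and 0.6997 and 1.78 Mbp for Diagenode. SDS was higher in 4 of 4, by a mean of 2.00-fold (log2 ratio of column to SDS -0.998 ± 0.413, SD, n = 4, exact sign-flip p = 0.125). As a share of list signal these peaks made up 1.49 to 3.52% of the column lists and 2.08 to 14.2% of the SDS lists. The share was higher with SDS in 3 of 4 pairs, and for ab177178 it was 2.21% with the column and 2.08% with SDS. The end of chromosome 5 alone, chr5:10002-12339, held 10.3% of the signal of the Active Motif SDS list, at a highest coverage of 1071 fragments. At 13 cycles SDS was higher in 2 of 4. In the single pair of H3K27me3 libraries at 11 cycles the sums were 0.2968 Mbp with the column and 0.3 Mbp with SDS. Reads from telomere repeats cannot be placed at 1 chromosome end, so the ends are not independent of each other. The study removed blacklisted regions before later steps. Whether these telomere repeats are among them was not checked, and no regions were removed from the lists used here.

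Mitochondrial DNA went the other way at 11 cycles. Nuclear copies of it, mainly chr1:564462-570304, had a signal of 0.171 and 0.0470 Mbp for ab177178, 0.236 and 0.170 Mbp for ab4729, 0.698 and 0.435 Mbp for Active Motif, and 1.12 and 0.654 Mbp for Diagenode, column first. The column was higher in 4 of 4, by a mean of 1.93-fold (exact sign-flip p = 0.125). On the mitochondrial genome itself the signal was 2.99 and 1.06 Mbp, 4.68 and 3.18 Mbp, 11.96 and 6.92 Mbp, and 20.1 and 10.8 Mbp in the same order, a log2 ratio of 0.94 ± 0.40 (exact sign-flip p = 0.125). Relative to the signal of all nuclear peaks it was 0.48 ± 1.04 on the log2 scale and higher with the column in 2 of 4 (exact sign-flip p = 0.625). Peaks within 1 Mb of a centromere gap made up 2.80 to 14.3% of column signal and 4.25 to 15.7% of SDS signal, a difference of -1.93 ± 0.58 points, negative in 4 of 4 (exact sign-flip p = 0.125). Their summed signal differed by a log2 ratio of 0.09 ± 0.52, higher with the column in 3 of 4 (exact sign-flip p = 0.75). These repeat shares and the signal-weighted promoter share given above are parts of the same summed signal of a list. With repeat peaks left out, the mean log2 ratio was 0.38 for peak number, 0.49 for covered base pairs and 0.10 for median width. The promoter share of peaks then differed by 0.77 points (exact sign-flip p = 0.875), in place of 1.48.

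**Figure D5:**
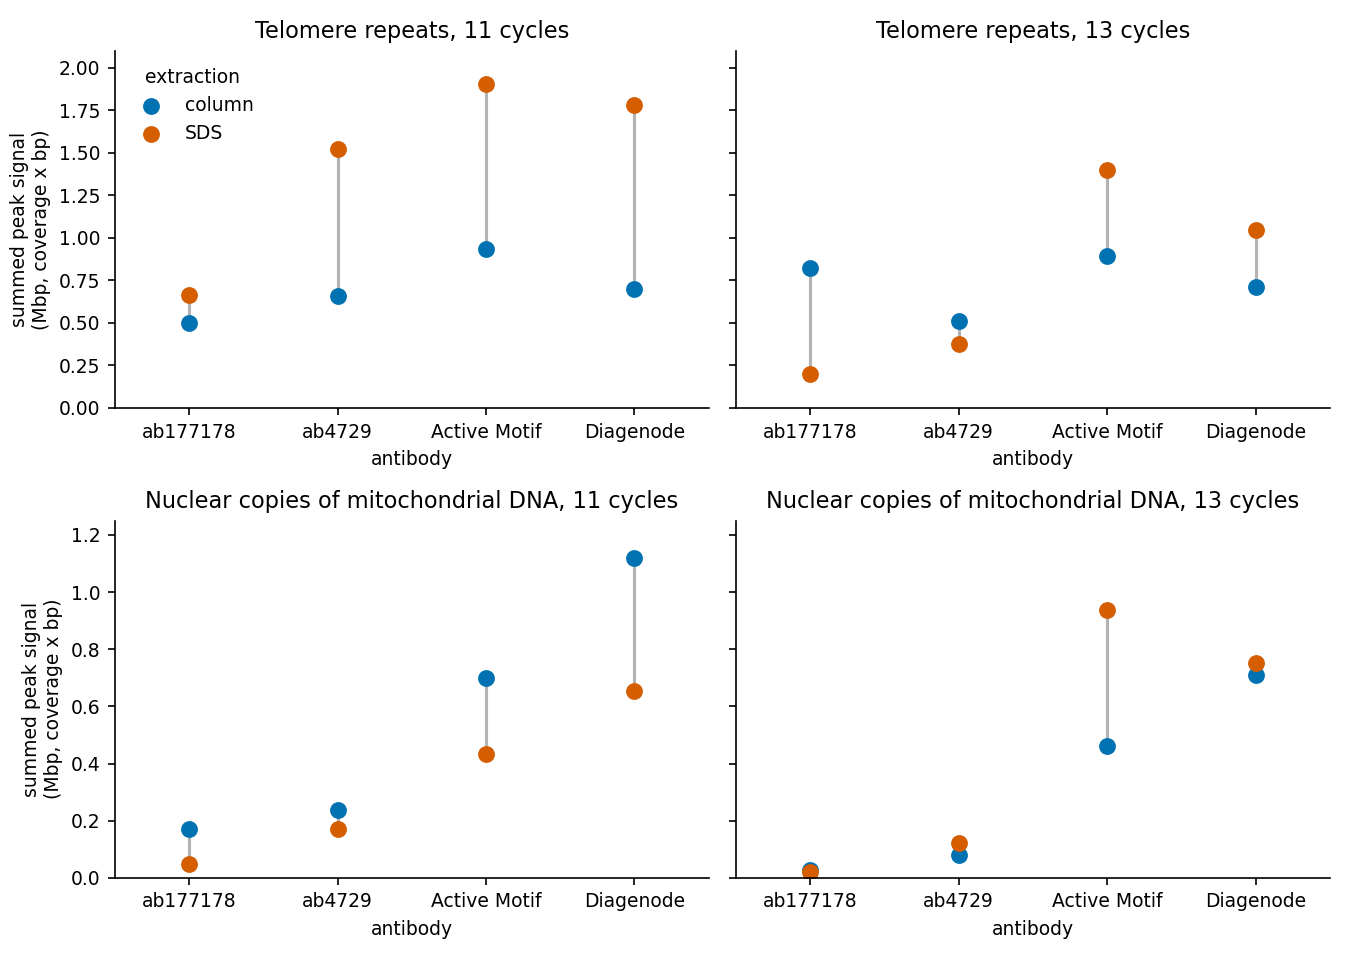
Summed signal of telomere-repeat peaks (upper row) and of nuclear copies of mitochondrial DNA (lower row), in Mbp (coverage times bp) (vertical axes), per antibody (horizontal axis) at 11 cycles (left) and 13 cycles (right), blue for the column and orange for SDS. At 11 cycles the orange points lie above the blue ones in all 4 pairs for telomere repeats and below them for the mitochondrial copies.

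The same 4 antibodies were run with both extractions at 13 cycles, and there the order turned. The column gave 8219, 4670, 3927 and 3797 peaks with ab177178, ab4729, Active Motif and Diagenode, and SDS gave 8161, 6277, 6111 and 6984 (log2 ratio -0.48 ± 0.38, SD, n = 4, exact sign-flip p = 0.25). The covered length was lower with the column in 4 of 4 (log2 ratio -0.48 ± 0.57, exact sign-flip p = 0.125). The extraction effect on peak number at 11 minus that at 13 cycles was 0.85 ± 0.85 on the log2 scale, with p = 0.25 in the exact sign-flip test over 4 antibodies, and 0.97 ± 0.99 for protein-coding promoters (exact p = 0.25). The difference in promoter share was 3.35 ± 6.24 points (exact p = 0.375). The share of peaks also called with the other extraction differed between column and SDS by -14.5 ± 17.7 points at 11 cycles and by 15.7 ± 12.6 points at 13 (difference -30.2 ± 28.8 points, exact p = 0.25). The 11-cycle difference was -1.05 points with equally long lists.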

How the data were processed

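H3K27ac was measured by CUT&Tag in K562 cells, and the 8 libraries of the 11-cycle set were grouped by their labels into 4 column and 4 SDS libraries, paired by antibody. Per the submitters' processing notes and the methods of the study, the authors' reads were trimmed (Trim Galore 0.6.6), placed on hg19 (Bowtie2 2.2.9), cleared of duplicates (Picard 2.6.0) and downsampled to a depth shared by this set, and peaks were called with SEACR at a threshold of 0.01 without a control. The order of duplicate removal and downsampling and the SEACR mode, which the sources name both as stringent and as non-stringent, were not settled here. The deposited lists give for each peak the signal, which is the authors' fragment coverage summed over the peak, and its highest coverage, both unscaled. They hold no read counts and no values of coverage outside peaks. Lists from another caller, MACS2, were not used here. The methods of the study remove blacklisted regions later, and here none were removed.

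Only peaks on the numbered chromosomes, X and Y entered, and they were compared with GRCh37 and its GENCODE annotation (64449 genes, 20136 protein-coding promoters with 1 per symbol, 1.5 kb either side of the canonical start). Overlapping peaks of the 8 lists were merged into regions, and peaks counted as shared from 1 bp of overlap. Library measures were compared by exact two-sided sign-flip tests over the 4 antibodies (Python 3.11.15, scipy 1.17.1), and signal and width in regions called in all 8 libraries by limma 3.58.1 in R 4.3.3 on log2 values with antibody as a block and a mean-variance trend. Both steps were tested on simulated data. The libraries of a condition are single, so p-values measure the spread between antibodies, which includes technical spread. The identity of the lists was checked, and any pair shared at most 13 identical peaks, 0.322% of the shorter list. The study tabulates unique fragments and duplication per library before downsampling, which differed between the extractions and were not used here. The deposited lists hold neither, and only counting error is covered by the binomial intervals.

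The 17 gene lists, the members named and the repeat classes were chosen with earlier results of these data known. Canonical starts replaced outermost starts after values with the latter had been seen. Named were promoters with a peak in 4 of 4 libraries of one extraction and 0 of the other (up to 10 each way by signal percentile, filled from 3 against 0 where fewer than 5), the regions with the smallest adjusted p in each fit, list members called in the most libraries or with the largest difference, and the qPCR controls. Genes outside this rule are named where they complete a count and were chosen after their values were seen. Telomere repeats were regions with at least 10% of bases in telomere hexamers, mitochondrial copies those with at least 50% of 31-base words in the mitochondrial genome, and pericentromeres those within 1 Mb of a centromere gap. Alternatives were equally long lists, the strongest 50% of peaks, joining peaks within 1000 bp, 3 kb promoters, other scalings and fits, leaving out each antibody pair, outermost starts and leaving out repeats, the last 2 added after the data were seen. Some genes and sequences are not reported here.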

Additional observations from a re-analysis of the deposited data

Results flagged for a closer look

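Among the 4 SDS libraries, ab177178 stood away from the others in its share of peaks on chromosome 22, which was 6.14% against 2.91% in the next highest library. The gap was 0.837 of the range of the 4 values, above the 95% limit of Dixon's test for 4 samples. The column library of the same antibody had 6.35%. This was 1 of 26 groups of 4 libraries looked at, over 13 measures, and chance flags about 1 in 20 such groups. At 13 cycles the share of that antibody was 3.31% with SDS and 2.62% with the column.

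The signal on the mitochondrial genome was higher with the column than with SDS in 4 of 4 antibodies at 11 cycles (mean log2 ratio 0.935) and lower in 4 of 4 at 13 cycles (-0.365). Relative to the signal of all nuclear peaks it was higher in 2 of 4 at 11 cycles (mean log2 ratio 0.476) and in 1 of 4 at 13 cycles (0.148). The difference between the cycle numbers was not tested.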

How the results depend on the processing

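The 8 library measures had 67 alternatives, of which 63 kept their direction and none fell under 0.05, a level that 4 pairs cannot reach in the exact sign-flip test. The share of peaks on reference H3K27ac regions, column minus SDS, turned from -0.35 to 0.330 points with equally long lists and to 0.491 with the strongest 50% of peaks. Leaving out 1 antibody pair moved it between -0.741 and 0.343 (the positive value without ab177178), and the median GC difference between -0.415 and 0.147 points (the positive value without Active Motif). Without 1 pair the mean log2 ratio of peak number ran from 0.20 to 0.57, of covered base pairs from 0.27 to 0.75, of promoters from 0.26 to 0.61 and of median width from 0.02 to 0.18. Peak number has no value for equally long lists, which are equal by construction.

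Regions called with one extraction only numbered 11 for the column with equally long lists, in place of 29, and promoters 15 in place of 29. Leaving out a pair asks for 3 libraries in place of 4, which gave 96 to 238 column regions, 13 to 35 SDS regions, 85 to 172 column promoters and 7 to 24 SDS promoters. In each of the 4 counts the lowest or highest value came without ab177178. The limma calls on signal, 4 in the main fit, were 0 without the replicate block (the pairing by antibody), 0 with centring on summed signal, which moved the median of all regions from -0.03 to 0.24 on the log2 scale, 0 without the mean-variance trend and 0 of 895 without repeat regions. They were 14 of 2306 regions when 3 of 4 libraries of each extraction were enough. Leaving out a pair gave 0 to 13. Apart from the repeat regions, which held all 4 calls, the cause was not tested. Width gave 0 calls in all its settings, with the block and without it.

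Limits are the single library per condition, unique fragment numbers that were not used here and differed between the extractions, and lists that hold no coverage outside peaks. A promoter without a peak can lie just under the floor of its list. The reference regions were made with SDS extraction and 3 of the 4 antibodies.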
